A study of Homo sapiens with 6 samples.

Results

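The genes described here are 7 human sulfatases of the group that includes the lysosomal enzymes (ARSA, ARSB, ARSD, ARSJ, GALNS, IDS and SGSH) and the pair of formylglycine enzymes on which sulfatases depend (SUMF1 and SUMF2). They were taken by gene name from a table of 59962 genes measured by RNA-seq, and all 9 names were found. All 9 also belonged to the 16610 genes with a level of at least 1 TPM (a transcript level scaled for the length of the transcript and the total of the library) in at least 2 libraries, which were the genes tested. The cells were CFPAC-1, an established human line from a pancreatic ductal adenocarcinoma. There were 3 groups of 2 libraries: a control whose guide RNA targets LACZ, a gene from bacteria, and SULF2 knockdown with either the guide sgRNA1 or the guide sgRNA3. Every group carried a guide, and no drug, dose or time point is given. The sources used here do not give how the guides act, whether a group is a single clone or a pool of cells, or whether its libraries are separate cultures, so the p-values measure the spread between libraries, which may be technical.

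Sulfatases remove sulfate groups from sugars, lipids and steroids. Each is made in an inactive form, and SUMF1, in the endoplasmic reticulum, turns a cysteine of the active site into formylglycine, without which the enzyme cannot work. SUMF2 is a relative of SUMF1 that lacks this activity, binds SUMF1 and sulfatases, and can inhibit the activation. Most of the sulfatases here then travel to the lysosome, where ARSB, GALNS, IDS and SGSH each remove a particular sulfate from glycosaminoglycan chains such as dermatan, keratan and heparan sulfate, and ARSA removes sulfate from the lipid sulfatide. Inherited loss of any of these 5 enzymes or of SUMF1 causes a storage disease. ARSD and ARSJ are relatives whose natural substrates are not established, and neither is established as a lysosomal enzyme. SULF2, the gene targeted in this study, encodes an extracellular sulfatase of heparan sulfate that needs the same activation.

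The coding sequence for the protein site that SUMF1 acts on links all of these sulfatases to each other and to SULF2. A stretch of it is therefore shown for 5 of the 7 sulfatases and for SULF2. Each line below holds 36 bases, or 12 codons, of the GENCODE 29 transcript, with the codon of the modified cysteine in capitals.
ARSA: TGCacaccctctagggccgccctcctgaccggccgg
ARSB: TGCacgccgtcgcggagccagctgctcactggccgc
ARSD: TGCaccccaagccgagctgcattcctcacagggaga
ARSJ: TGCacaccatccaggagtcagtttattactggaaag
GALNS: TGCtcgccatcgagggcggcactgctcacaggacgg
SULF2: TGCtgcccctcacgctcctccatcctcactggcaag

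On GRCh38 the stretch of ARSB lies on the minus strand at chr5:78984943-78984978 and starts at codon 91. That of SULF2 lies on the minus strand at chr20:47736821-47736856 and starts at codon 88. Of the 36 bases, 18 were the same as in SULF2 for ARSJ (50%), 20 each for ARSB, ARSD and GALNS (55.6%) and 23 for ARSA (63.9%). The stretch was located by codons for cysteine, any amino acid, proline, serine and arginine in a row, in a coding transcript of each gene. Part of the identity is therefore set by the search. All 17 human sulfatases searched held exactly 1 such stretch in frame.

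The target was checked first. SULF2 stood at 25.69 and 22.52 TPM in the controls, at 8.98 and 12.81 TPM with sgRNA1, and at 10.07 and 9.24 TPM with sgRNA3. All 4 knockdown libraries were below both controls, at 45.2% of the control mean with sgRNA1 and 40.1% with sgRNA3. The fall passed the test with each guide (limma adjusted p = 0.0338 and 0.0215), although leaving out any library ended the sgRNA1 call (0.0544 to 0.172) and leaving out either control or either sgRNA3 library ended the sgRNA3 call (0.1 to 0.117). Sequencing depth is unknown because only TPM values are held, and between 15563 and 15923 genes reached 1 TPM in each library. The ductal epithelial markers were abundant in every library, with a summed level of 8030 to 9230 TPM over 9 genes, except that CFTR was at 0.07 to 0.38 TPM. Of the markers of other cell types, those of leukocytes (5 genes, 91.4 to 110 TPM, nearly all CD68) and fibroblasts (6 genes, 37.6 to 77.9 TPM, nearly all COL1A1) had the highest sums, while PTPRC, CD3E, COL3A1 and DCN were near 0.

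In the control cells the 9 genes covered a wide range of levels. SUMF2 was by far the highest, at 277.93 and 287.87 TPM, and its mean exceeded that of 97.1% of the genes tested. Among the 7 sulfatases the order was IDS (49.3 TPM), ARSJ (38.7), GALNS (12.2), ARSD (9.0), ARSA (8.86), ARSB (6.50) and SGSH (3.80), as means of the control libraries. The control values of ARSD (9.84 and 8.15 TPM) and ARSA (8.35 and 9.37 TPM) overlapped, so these neighbours did not differ beyond their spread, whereas no other neighbours in this order overlapped. SUMF1 stood between ARSJ and GALNS at 19.2 ± 3.08 TPM (SD, n = 2).

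**Figure D1:**
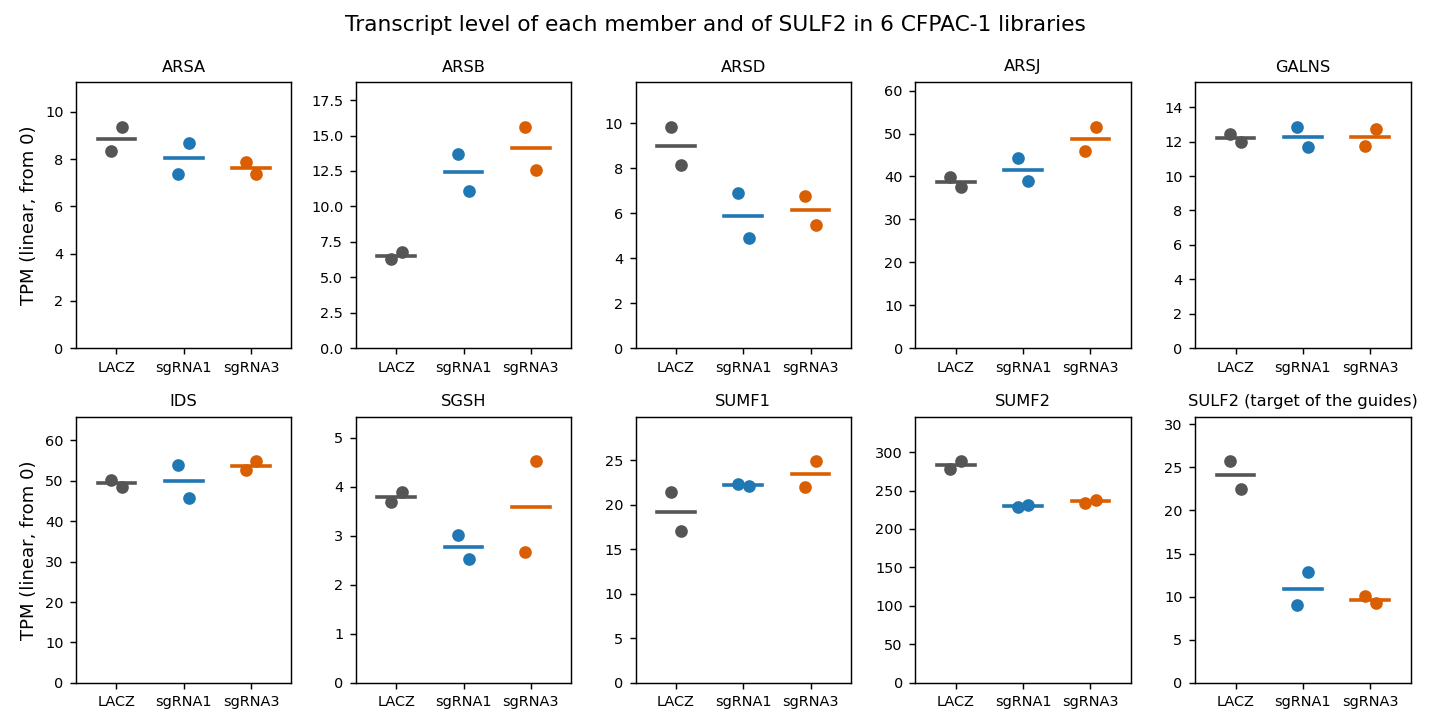
Level of each of the 9 genes and of SULF2 in every library, in TPM, with points for the 2 libraries of each group (LACZ control, sgRNA1, sgRNA3) and a bar at their mean. ARSB lies at 6.26 and 6.75 TPM in the controls and at 11.11 to 15.63 TPM in the knockdown libraries, SUMF2 lies lower in all 4 knockdown libraries, and the GALNS groups overlap.

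ARSB and SUMF2 were the members that passed the test, both with each guide: ARSB rose to 1.91-fold and 2.17-fold of its control mean, and SUMF2 fell to 81.3% and 83.4%. The other 7 members did not pass with either guide. A limma fit of all 3 groups on log2(TPM + 1), adjusted by Benjamini-Hochberg over all genes tested with a threshold of 0.05, gave 2 of 9 members with sgRNA1, where 6.0% of all genes tested passed (1.69% higher and 4.31% lower), and 2 of 9 with sgRNA3, where 9.08% passed (3.84% higher and 5.25% lower). The same 2 of 9 passed with both guides in the same direction, against 4.05% of all genes (1.15% higher and 2.90% lower). Both comparisons share the control libraries, so agreement between guides is not independent. The median log2 change of the members was 0.01 with sgRNA1 and 0.00 with sgRNA3, beside -0.07 and -0.04 over all genes tested.

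ARSB, or arylsulfatase B, removes the sulfate at carbon 4 of N-acetylgalactosamine in dermatan and chondroitin sulfate (ENSG00000113273, minus strand of chromosome 5, 78777209 to 78986087 on GRCh38). Its level was 6.26 and 6.75 TPM in the controls, 13.71 and 11.11 TPM with sgRNA1, and 15.63 and 12.58 TPM with sgRNA3. All 4 knockdown libraries were above both controls, the lowest of them by 4.36 TPM where libraries of a group were at most 3.05 TPM apart, and the values of the 2 guides overlapped. Group means were 6.50 ± 0.346 TPM (SD, n = 2) in the control, 12.4 ± 1.84 with sgRNA1 and 14.1 ± 2.16 with sgRNA3. On the log2 scale ARSB rose by 0.83 with sgRNA1 (SE 0.16, 95% interval 0.43 to 1.23, limma adjusted p = 0.048) and 1.0 with sgRNA3 (interval 0.60 to 1.4, limma adjusted p = 0.0263). No other gene of the annotation overlaps ARSB.

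In the order of the 13 sulfatases tested, by group mean, ARSB was the 11th in the control and the 4th with each guide. That 4th place did not exceed the spread between libraries. The ARSB values overlapped those of GALNS with sgRNA1 (12.87 and 11.71 TPM) and of STS with sgRNA3 (13.28 and 13.12 TPM). SULF2 went from the 4th to the 7th place, where its sgRNA1 values overlapped those of STS (11.94 and 11.25 TPM). ARSB was above SULF2 in 3 of the 4 knockdown libraries, the exception being the second sgRNA1 library, and in 0 of the 2 controls. Of the TPM summed over 17 sulfatases, ARSB made up 2.31% and 2.61% in the controls and 4.71% to 6.25% in the knockdown libraries, while SULF2 made up 8.72% to 9.46% and then 3.53% to 5.43%. That sum, which includes SULF2, was 271.6 and 258.3 TPM in the controls, 254.1 and 235.9 TPM with sgRNA1, and 249.9 and 256.2 TPM with sgRNA3. All 4 knockdown libraries lay below both controls. Summed over the 7 member sulfatases alone, the controls were at 130.7 and 126.1 TPM. On that sum the knockdown libraries overlapped them, at 142.1 and 123.6 TPM with sgRNA1 and 143.4 and 149.1 TPM with sgRNA3.

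The ARSB call with sgRNA1 was close to the threshold and was lost when any of the 6 libraries was left out (limma adjusted p = 0.0827 to 0.197). With sgRNA3 it was lost when either control library was left out (0.126 and 0.113) or either sgRNA3 library (0.121 and 0.0822). The log2 change over these fits stayed between 0.69 and 0.97 with sgRNA1 and between 0.86 and 1.15 with sgRNA3.

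Of the 2 formylglycine enzymes, SUMF2 was lower and SUMF1 was not called. SUMF2 (ENSG00000129103, plus strand of chromosome 7, 56064002 to 56080670) was at 277.93 and 287.87 TPM in the controls, 228.94 and 231.16 TPM with sgRNA1, and 233.89 and 238.21 TPM with sgRNA3. The 3 groups did not overlap, and the gap between control and knockdown, 39.72 TPM, was larger than the spread within any group (at most 9.94 TPM). On the log2 scale the SUMF2 change was -0.30 with sgRNA1 (SE 0.04, 95% interval -0.39 to -0.20, limma adjusted p = 0.0175) and -0.26 with sgRNA3 (interval -0.35 to -0.17, limma adjusted p = 0.0209). Leaving out any library ended the sgRNA1 call (limma adjusted p = 0.0582 to 0.101), and leaving out either control library or either sgRNA3 library ended the sgRNA3 call (0.0801 to 0.117). Scaling by median of ratios moved the sgRNA1 change to -0.21 (limma adjusted p = 0.0533). PHKG1, which overlaps SUMF2 on the opposite strand, was at 0.15 to 1.1 TPM.

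SUMF1, the enzyme that forms formylglycine, was at 21.43 and 17.07 TPM in the controls, 22.34 and 22.12 TPM with sgRNA1, and 22.02 and 24.90 TPM with sgRNA3. The 4 knockdown libraries were above both controls, but the lowest exceeded the higher control by less than the difference between the controls. Its log2 change did not pass with sgRNA1 (0.21, 95% interval -0.12 to 0.53, limma adjusted p = 0.394) or sgRNA3 (0.28, interval -0.05 to 0.61, limma adjusted p = 0.237). The ratio of SUMF2 to SUMF1 TPM was 13.0 and 16.9 in the controls and 9.57 to 10.6 in the knockdown libraries, without overlap. The span of SUMF1 overlaps LRRN1 and SETMAR on the opposite strand, at 3.91 to 8.67 TPM. Overlaps were taken from whole gene spans, and the strandedness of the libraries is not given. Whether reads of overlapping genes on opposite strands could be told apart is therefore not known.

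**Figure D2:**
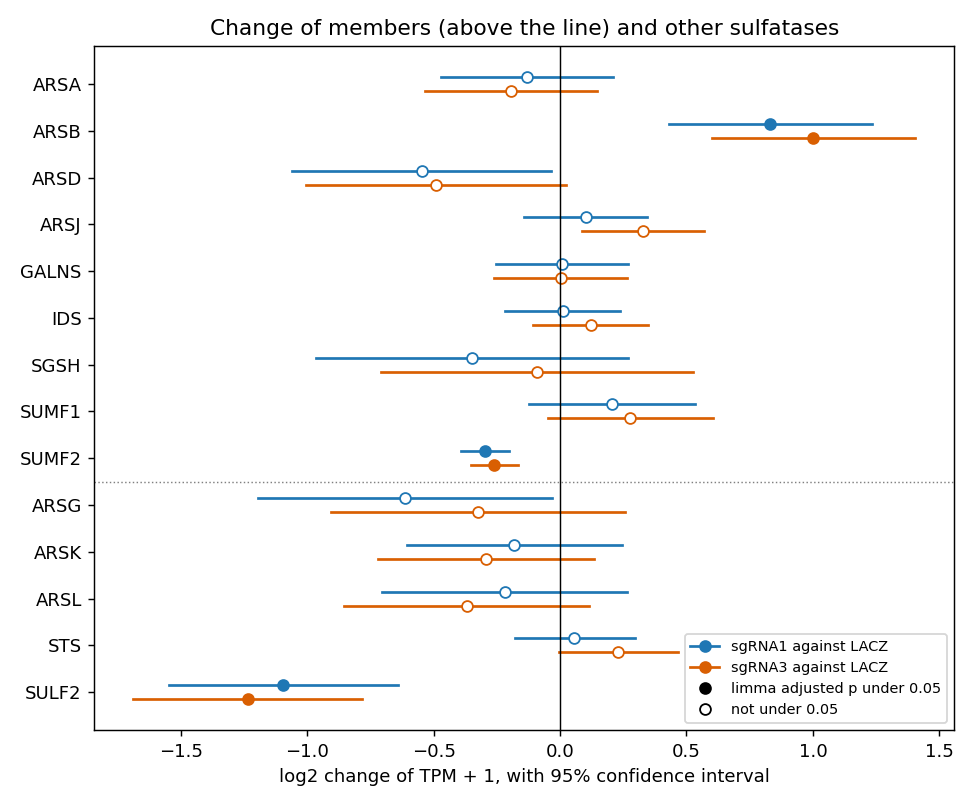
Change of log2(TPM + 1) on the horizontal axis for the 9 members (above the dotted line) and 5 other tested sulfatases, sgRNA1 and sgRNA3 against LACZ, with 95% limma intervals and filled points where the adjusted p is under 0.05. ARSB lies to the right of 0 and SUMF2 and SULF2 to the left with both guides, all filled, while the GALNS points lie at 0.01 and 0.00.

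The enzymes that act beside ARSB on glycosaminoglycans did not pass. GALNS, which removes the sulfate at carbon 6 of galactose and N-acetylgalactosamine in keratan and chondroitin sulfate, was at 12.45 and 11.97 TPM in the controls, 12.87 and 11.71 TPM with sgRNA1, and 11.76 and 12.72 TPM with sgRNA3. All 3 groups overlapped, and the 95% interval of the log2 change was -0.26 to 0.27 with sgRNA1 and -0.26 to 0.27 with sgRNA3, so a change of the size seen for ARSB lay outside it. TRAPPC2L overlaps GALNS on the opposite strand and was higher than it, at 58.0 to 90.9 TPM.

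IDS, which removes sulfate from iduronic acid in dermatan and heparan sulfate, was at 50.22 and 48.45 TPM in the controls, 53.91 and 45.84 TPM with sgRNA1, and 52.68 and 54.80 TPM with sgRNA3. The sgRNA1 libraries lay on both sides of the controls, and the sgRNA3 libraries were above them. Its 95% interval was -0.22 to 0.24 with sgRNA1 (limma adjusted p = 0.957) and -0.11 to 0.35 with sgRNA3 (limma adjusted p = 0.44). The pseudogene IDSP1 was listed at 0 in all 6 libraries, and AC244197.3, which overlaps IDS on the same strand, was at 11.36 to 14.6 TPM.

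SGSH, which removes N-linked sulfate from heparan sulfate, was at 3.70 and 3.90 TPM in the controls, 3.02 and 2.53 TPM with sgRNA1, and 2.67 and 4.52 TPM with sgRNA3. The sgRNA1 libraries were below the controls and the sgRNA3 libraries fell on either side of them. SGSH was the lowest of the 7 sulfatases and had wide intervals, from -0.97 to 0.27 with sgRNA1 (limma adjusted p = 0.443) and from -0.71 to 0.52 with sgRNA3 (limma adjusted p = 0.844). Under quantile normalization the sgRNA3 value was 0.03.

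ARSA, the sulfatide enzyme, was at 8.35 and 9.37 TPM in the controls, 7.38 and 8.67 TPM with sgRNA1, and 7.86 and 7.35 TPM with sgRNA3. The sgRNA3 libraries were below the controls and the sgRNA1 libraries overlapped them. Its log2 change was -0.13 with sgRNA1 (95% interval -0.47 to 0.21, limma adjusted p = 0.606) and -0.19 with sgRNA3 (interval -0.53 to 0.15, limma adjusted p = 0.406). Under quantile normalization the sgRNA1 value was 0.00.

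ARSD, which lies among other sulfatase genes on the X chromosome, was at 9.84 and 8.15 TPM in the controls, 6.87 and 4.91 TPM with sgRNA1, and 6.77 and 5.47 TPM with sgRNA3. All 4 knockdown libraries were below both controls, at 65.5% of the control mean with sgRNA1 and 68.0% with sgRNA3, but the libraries of a group were up to 1.96 TPM apart. The log2 change of -0.55 with sgRNA1 (SE 0.20, 95% interval -1.06 to -0.03) and -0.49 with sgRNA3 (interval -1.0 to 0.02) did not pass (limma adjusted p = 0.181 and 0.193). The pseudogene ARSDP1 was at 0 to 0.15 TPM and the antisense gene ARSD-AS1 at 0 to 0.76 TPM.

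ARSJ was at 39.84 and 37.48 TPM in the controls, 44.31 and 38.87 TPM with sgRNA1, and 46.05 and 51.62 TPM with sgRNA3. Both sgRNA3 libraries were above every other library, and the lower sgRNA1 library fell between the controls. Its log2 change was 0.10 with sgRNA1 (95% interval -0.14 to 0.34, limma adjusted p = 0.576) and 0.33 with sgRNA3 (interval 0.09 to 0.57, limma adjusted p = 0.0984). Scaling by median of ratios took the sgRNA3 value to 0.38 and past the threshold (limma adjusted p = 0.0465).

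Set against the controls without the pooled spread, 4 of the 9 members had all knockdown libraries on one side: ARSB and SUMF1 above, ARSD and SUMF2 below. Among all genes tested 36.6% did so, 13.2% above and 23.4% below. Each of these 4 members gave a two-sided exact permutation p of 0.0667 for the difference of mean TPM, the smallest that 4 libraries against 2 allow. Exact p for the other 5 ranged from 0.2 for ARSA to 0.867 for GALNS.

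The 2 guides were also compared with each other. With limma, 0 of the 9 members passed, and 0 had an unadjusted p under 0.05, where 0.578% of all genes tested passed (0.391% higher and 0.187% lower with sgRNA3). ARSJ came closest, with sgRNA3 minus sgRNA1 at 0.23 (95% interval -0.02 to 0.47, limma adjusted p = 0.351). For ARSB the difference was 0.17 with an interval of -0.23 to 0.57, and for SUMF2 it was 0.04 with an interval of -0.06 to 0.13. These intervals limit how far the guides could differ and do not show that they acted alike.

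Over 17 alternative settings the ARSB call was kept in 5 with sgRNA1 and in 10 with sgRNA3, and that of SUMF2 in 8 and 11. ARSB was positive and SUMF2 negative in every one of these fits.

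**Figure D3:**
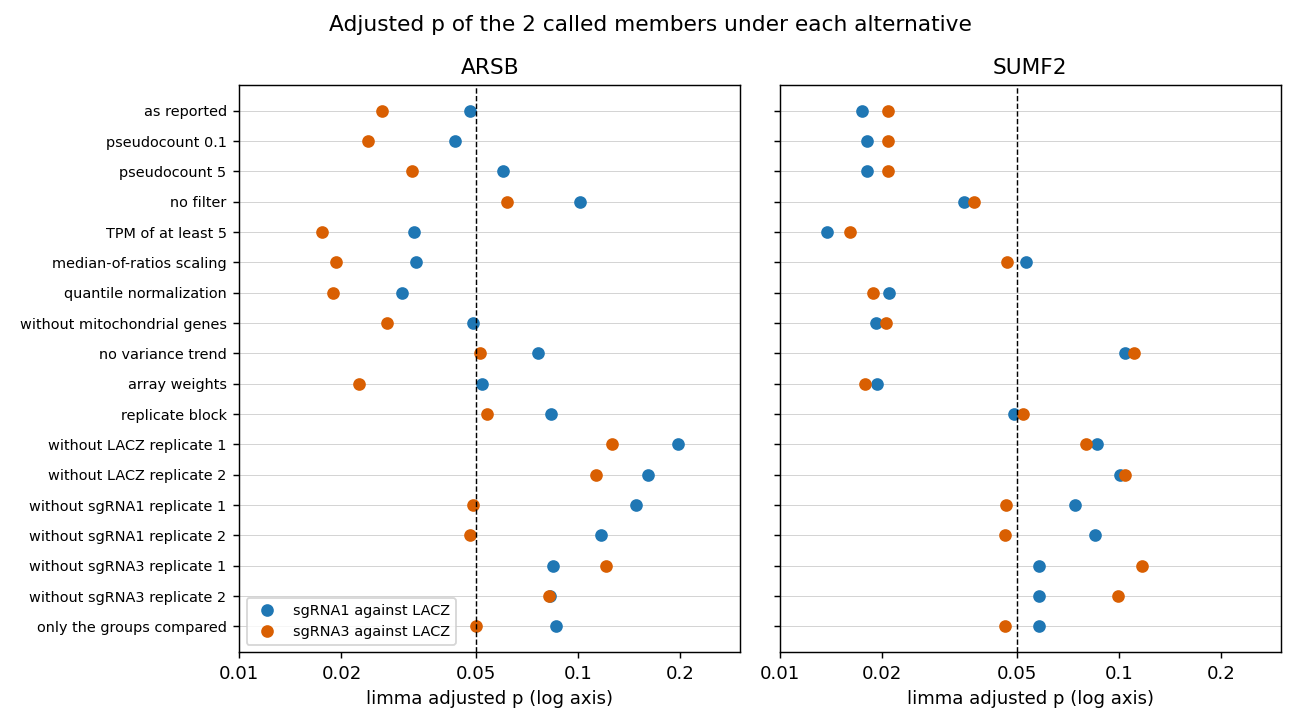
Limma adjusted p (log axis) of ARSB and SUMF2 as reported and under each of 17 alternative settings, for sgRNA1 and sgRNA3 against LACZ, with a dashed line at the threshold of 0.05. For ARSB 12 of the 17 alternatives lie to the right of the line with sgRNA1 and 7 with sgRNA3, and for SUMF2 9 and 6.

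Of the 10 human sulfatases that are not members, 6 were tested, and SULF2 alone passed, with each guide. STS, the steroid sulfatase, was at 11.01 and 11.19 TPM in the controls, 11.94 and 11.25 TPM with sgRNA1, and 13.28 and 13.12 TPM with sgRNA3, above the controls in all 4 but not past the test (limma adjusted p = 0.758 and 0.188). Below the controls in all 4 were ARSG and ARSK (two-sided exact permutation p = 0.0667 and 0.133). ARSG, ARSK and ARSL (listed as ARSE) had control means from 5.1 to 8.98 TPM and negative log2 changes between -0.61 and -0.18 that did not pass (limma adjusted p = 0.184 to 0.568). ARSF and SULF1 were listed at 0 in every library, ARSH reached at most 0.11 TPM and ARSI 0.38 TPM.

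Around the members, the other genes of the pathway mostly did not pass. Among 5 genes that retain or carry SUMF1 in the secretory pathway, MCFD2, the partner of the cargo receptor LMAN1, rose with sgRNA3 (log2 change 0.26, limma adjusted p = 0.0289) and had a value of 0.15 with sgRNA1 (limma adjusted p = 0.116). Its 4 knockdown libraries were all above the controls, and the difference between the guides did not pass (0.115, limma adjusted p = 0.312). With limma, 0 of 12 glycosidases and related enzymes passed with either guide, most of which take glycosaminoglycans apart beside the sulfatases. Of these 12, 0 and 3 had an unadjusted p under 0.05 with sgRNA1 and sgRNA3. Nor did any of 10 genes that break down sphingolipids beside ARSA (limma, 3 and 2 at an unadjusted p under 0.05), among them PSAP, the precursor of the saposins, at 0.18 and 0.00 (limma adjusted p = 0.0655 and 0.992). Of 10 genes that route enzymes to the lysosome, SCARB2, a membrane protein that carries cargo to the lysosome, rose with sgRNA3 (0.24, limma adjusted p = 0.0395). NAGPA, which uncovers the mannose 6-phosphate tag, had positive values of 0.58 and 0.59 that did not pass (limma adjusted p = 0.117 and 0.0962). The MCFD2 and SCARB2 calls were lost whichever of the 6 libraries was left out (limma adjusted p up to 0.138 and 0.158).

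Among 15 lysosomal proteases, membrane proteins and other hydrolases, 2 fell and 0 rose with each guide, where 4.31% and 5.25% of all genes tested fell. Of the 15, 6 and 8 had an unadjusted limma p under 0.05 with sgRNA1 and sgRNA3, in either direction. Of all 16610 genes tested, at least 3907 and 4491 did. LGMN, the protease legumain, fell with both: it was at 139.24 and 138.38 TPM in the controls, 97.52 and 98.38 TPM with sgRNA1, and 99.94 and 104.81 TPM with sgRNA3 (log2 change -0.50 and -0.44, limma adjusted p = 0.00805 and 0.0101). The cathepsin CTSD passed with sgRNA1 (-0.22, limma adjusted p = 0.0341) and CTSB with sgRNA3 (-0.43, limma adjusted p = 0.0122). Among 16 subunits and partners of the V-ATPase, the proton pump that acidifies the lysosome, 2 rose with sgRNA1 (ATP6V0E1, 0.38, limma adjusted p = 0.0145, and ATP6V0D1, 0.38, 0.0357) and 2 others with sgRNA3 (ATP6V1A, 0.36, 0.0253, and ATP6V0C, 0.27, 0.0361). Of all genes tested 1.69% rose with sgRNA1 and 3.84% with sgRNA3, and 0 of the 16 passed with both guides. The medians of this list were 0.10 and 0.17, and 8 of its 16 genes had all knockdown libraries above the controls, against 13.2% of all genes tested. Between the guides 0 of the 16 passed with limma, and 4 had an unadjusted p under 0.05. CTSD, CTSB, SCARB2, ATP6V0D1 and ATP6V0E1 are named because they passed, after their values were seen. The LGMN, ATP6V0E1 and CTSB calls were lost when either control library or either library of the guide concerned was left out (limma adjusted p up to 0.0736, 0.0953 and 0.0796 over all alternatives), and those of CTSD, ATP6V0D1, ATP6V1A and ATP6V0C whichever of the 6 libraries was left out (up to 0.166, 0.135, 0.122 and 0.147).

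TFEB, a transcription factor of lysosomal genes, was at 7.81 and 6.92 TPM in the controls, 4.19 and 4.0 TPM with sgRNA1, and 3.32 and 3.26 TPM with sgRNA3. No knockdown library reached the controls, and the fall passed with sgRNA3 (log2 change -0.96, limma adjusted p = 0.023) and narrowly missed with sgRNA1 (-0.71, limma adjusted p = 0.0541). Its relatives MITF (-0.48 and -0.25) and TFE3 (-0.12 and -0.20) did not pass with either guide. Leaving out any of the 6 libraries ended the TFEB call (limma adjusted p up to 0.113). These are transcript levels, and the location of the proteins was not measured.

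The chains that ARSB and GALNS take apart are built by another list of genes, of which 18 of 21 were tested. CHPF2, a factor of chondroitin chain extension, was at 14.61 and 14.51 TPM in the controls, 23.95 and 20.45 TPM with sgRNA1, and 24.72 and 24.26 TPM with sgRNA3. It rose with both guides (log2 change 0.57 and 0.71, limma adjusted p = 0.0382 and 0.0195), as did no other gene of this list with either. With sgRNA1 this did not hold when any library was left out (limma adjusted p up to 0.165), nor with sgRNA3 when either control or either sgRNA3 library was left out (up to 0.11). Its relative CHPF had values of 0.33 and 0.17 that did not pass (limma adjusted p = 0.103 and 0.305). In the supply of activated sulfate, 0 of 7 genes passed with limma with either guide. With sgRNA1 and sgRNA3, 0 and 2 of them had an unadjusted p under 0.05, beside at least 3907 and 4491 of all 16610 genes tested.

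**Figure D4:**
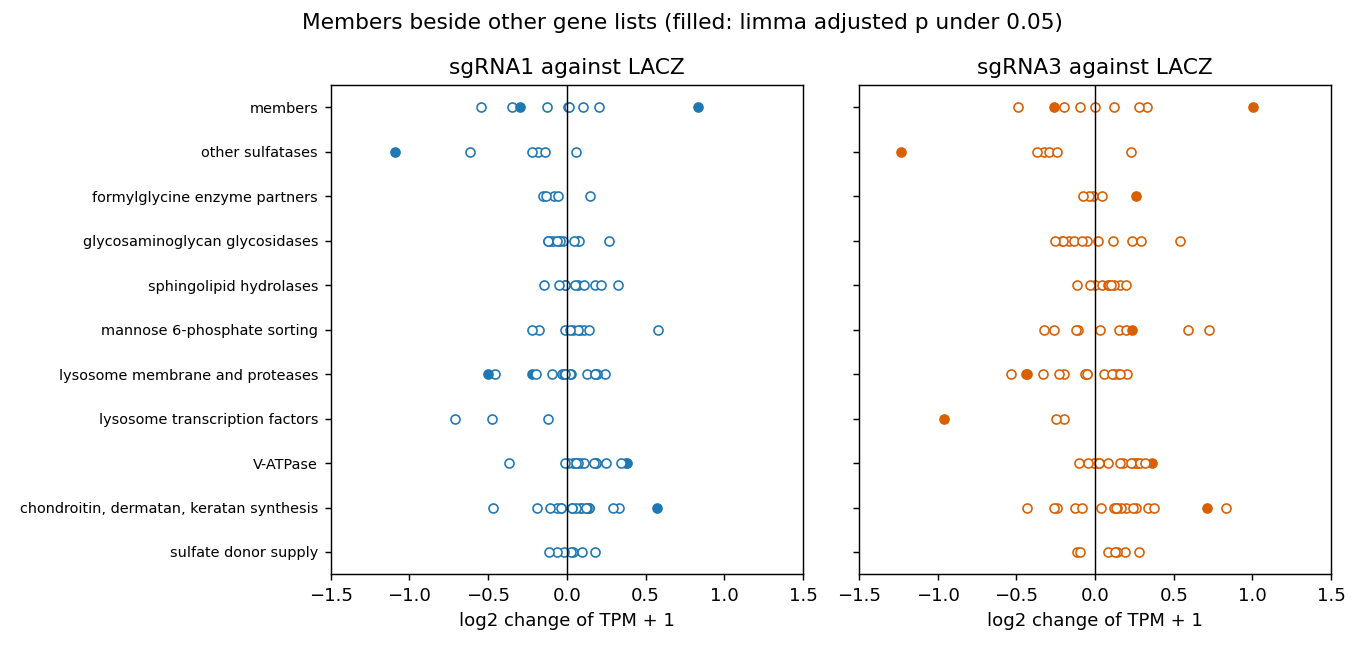
Log2 change of every tested gene in each list of the sulfatase pathway, for sgRNA1 and sgRNA3 against LACZ, with filled points where the adjusted p is under 0.05. ARSB is the highest and SULF2 the lowest called point with each guide, and the glycosidase, sphingolipid and sulfate donor lists hold no filled point.

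The genes whose 6 library values followed those of ARSB most closely were sought among 10948 tested genes with a mean of at least 5 TPM, by the root mean square difference of log2(TPM + 1) from the control mean. The closest was ZC3HAV1, an antiviral RNA-binding protein, at a difference of 0.09, with 14.46 and 15.46 TPM in the controls, 27.26 and 26.03 TPM with sgRNA1, and 31.69 and 30.17 TPM with sgRNA3. It was followed by BRI3BP (0.12), CDC25A (0.13), FAM111B (0.13) and RIBC2 (0.14). For SUMF2 the closest was KIAA1522 (0.02), with 58.72 and 60.29 TPM in the controls, 48.95 and 47.32 TPM with sgRNA1, and 49.01 and 50.03 TPM with sgRNA3. GMEB2 (0.02), ASB1 (0.03), SPINT1 (0.03) and ZFAND3 (0.03) came next.

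Because TFEB and its relatives bind the letters CACGTG, these were searched on both strands in RefSeq promoters of the build GRCh38.p14, from 250 bases before to 50 bases after the gene start. For 6 of the 9 members 7 promoters were held, 2 of them for ARSB. CACGTG occurred in 3 of these 7 promoters (GALNS, SUMF1 and the upstream promoter of ARSB) and in 7.26% of all 35116 promoters. Counted by gene, 3 of the 6 members and 8.77% of 27305 genes had a promoter with a match. The other ARSB promoter, at chr5:78985261-78985560, had none. The windows are shown in the direction of the gene with the matched letters in capitals.
ARSB: attcaataagCACGTGactaaaggat
GALNS: ggcaccgcgtCACGTGacccgccgct
GALNS: ccccgcgagtCACGTGgccgtccagg
SUMF1: agggctcagcCACGTGaccaaccggg

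These lie on the minus strand at chr5:78986103-78986128 for ARSB, chr16:88857106-88857131 and chr16:88856964-88856989 for GALNS, and chr3:4467267-4467292 for SUMF1. The first GALNS window alone extends to TCACGTGA, which 0.98% of all promoters hold. Of the 3 genes with a match, ARSB rose while GALNS and SUMF1 did not pass. SUMF2, which fell, had no match in this window. A match describes letters only, and binding was not measured.

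Where markers moved with the members, their values were as follows. The summed ductal markers were 9060 to 9230 TPM in the controls, 8030 to 8210 TPM with sgRNA1 and 8640 to 8680 TPM with sgRNA3. The summed fibroblast markers were 77.5 to 77.9 TPM, 58.6 to 60.5 TPM and 37.6 to 41.7 TPM in the same order, the leukocyte markers 91.4 to 95.4, 96.1 to 101 and 107 to 110 TPM, the endothelial markers (4 genes) 4.88 to 5.25, 4.45 to 4.99 and 4.33 to 4.83 TPM, and the acinar and islet markers (6 genes, of which AMY2A, INS and GCG were at 0 throughout) 0.61 to 0.99, 1.2 to 1.5 and 0.88 to 1.34 TPM. Of the 8 ductal markers tested, KRT18, KRT19 and SOX9 passed lower with both guides, beside 2.90% of all genes tested, and CDH1 with sgRNA1 only. COL1A1 also passed lower with both, and CD68 passed higher with sgRNA3 only (limma adjusted p = 0.0416). Each of these calls except COL1A1 with sgRNA3 was lost with some library left out. The part of the markers in the changes of ARSB and SUMF2 was not tested.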

How the data were processed

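The deposited table holds TPM values with 2 decimals, computed by the authors. Per the submitters' processing notes the build was GRCh38 and the tools were RSEM 1.3.1, HISAT2 2.1.0 and DESeq2 1.24.0, with no role stated. The sources used here give neither annotation release nor strandedness. The guide number in the column names (H1, H3) and in the titles (S1, S3) tied columns to samples, and the authors' group means were not used.

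Count models need counts, so limma 3.58.1 (R 4.3.3, with release 1.17.8 of data.table) was run on log2(TPM + 1) for the 16610 genes with at least 1 TPM in at least 2 libraries, with 3 groups in a single fit, a variance trend (3 residual and 2.34 prior degrees of freedom), two-sided p-values and Benjamini-Hochberg adjustment over all genes tested. These log2 changes understate the change of genes with low TPM. TPM keeps no depth, so no counting interval is given. Single genes were also compared by an exact permutation test of 4 knockdown libraries against 2 controls (15 splits).

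The members and lists were chosen with earlier results of these data known. Sulfatases were always named, then up to 4 genes per further list by the smallest p over both guides (the larger of a gene's p-values), and the 5 genes most like each member called with both guides. Lists and markers matched by symbol, and 3 entries, among them ARSL and BPNT2, by gene identifier. Some genes and sequences that the rule covers are not reported here. Coordinates and coding sequences come from GENCODE 29, promoters from RefSeq.

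Alternatives were pseudocounts of 0.1 and 5, no filter or 5 TPM, a replicate block, array weights, no variance trend, mitochondrial genes removed, quantile normalization or median-of-ratios scaling, only the groups compared, the mean of both guides, and each library left out.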

Additional observations from a re-analysis of the deposited data

Results flagged for a closer look

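Among 126 tested genes of the lists, 2 differed between the guides by limma's test of the difference itself, and neither is a sulfatase or a formylglycine enzyme. The protease gene CTSB was lower with sgRNA3 than with sgRNA1 by a log2 difference of -0.458 (SE 0.049, limma adjusted p = 0.0393), with changes against the control of 0.025 with sgRNA1 and -0.433 with sgRNA3. The collagen gene COL1A1 differed by -0.597 (SE 0.07, limma adjusted p = 0.0463), with changes of -0.392 and -0.989. Leaving out any of the 6 libraries ended both calls, with limma adjusted p up to 0.188 for CTSB and 0.193 for COL1A1.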

How the results depend on the processing

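With 2 libraries a group, calls depended on how the spread was estimated, and the cause of each change below was not tested. With sgRNA1 the 997 genes past the threshold became 542 with no filter, 295 without the variance trend, 377 with the replicate block, 311 with only the groups compared and 150 to 346 with a library left out. With sgRNA3 the 1509 genes became 785, 557, 561, 833 and 192 to 852 in the same order. For sgRNA3 against sgRNA1 the 96 genes became 0, 12, 0, 2 and 0 to 27.

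The 2 members called with sgRNA1 became 1 with a pseudocount of 5, no filter, median-of-ratios scaling, array weights or the replicate block, and 0 without the variance trend, with only the groups compared or with any library left out (0 to 0). Those called with sgRNA3 became 3 with median-of-ratios scaling (ARSJ added), 1 with no filter, 0 without the trend or with the block, and 0 to 2 with a library left out. The 2 called with both guides became 1 with a pseudocount of 5, no filter, median-of-ratios scaling or array weights, and 0 without the trend, with the block, with only the groups compared or with any library left out (0 to 0). Taking the mean of both guides left 2, with ARSB at 0.92 (limma adjusted p = 0.0206) and SUMF2 at -0.28 (0.0109).

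Same-numbered libraries did not deviate together (correlations of -0.0179, 0.00611 and -0.0314), and the main fit did not use the replicate numbers as pairs. These correlations cannot show whether same-numbered libraries were handled together. With the block the limma adjusted p of ARSB was 0.0829 and 0.0536 and that of SUMF2 0.0491 and 0.0523.

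Sign changes occurred 19 times, always in values past no threshold. Under quantile normalization ARSA with sgRNA1 became 0.002 and SGSH with sgRNA3 0.032. Without mitochondrial genes GALNS with sgRNA3 became -0.002. With a library left out, the sign changed within these ranges of the log2 change: GALNS -0.055 to 0.071 and IDS -0.104 to 0.126 with sgRNA1, and GALNS -0.05 to 0.055 and SGSH -0.387 to 0.202 with sgRNA3. Between the guides the ranges were -0.169 to 0.038 for ARSA, -0.151 to 0.263 for ARSD, -0.068 to 0.058 for GALNS, -0.005 to 0.225 for IDS, -0.038 to 0.551 for SGSH, -0.013 to 0.157 for SUMF1 and -0.375 to 0.093 for SULF2.

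Where 1 library remained in a group, its spread was taken from the other groups. Depth is unknown, so how it limits SGSH and other low genes cannot be given.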
